A study of Mus musculus with 15 samples.

Results

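The 35 genes described here encode aminoacyl-tRNA synthetases, the enzymes that load each tRNA with its amino acid. They were chosen by gene symbol, with earlier results of these data known, from the 23352 genes of a table of messenger RNA levels. Of the 35, 19 encode enzymes of the cytosol and 16, with symbols ending in 2, encode enzymes of mitochondria. All 35 passed the filter for testing, an FPKM (fragments scaled by transcript length and library depth) of at least 1 in at least 3 libraries.

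Levels were measured in C2C12 cells, an established line of mouse myoblasts. The study altered the activity of MLX, a transcription factor that pairs with the glucose-responsive factors ChREBP and MondoA on DNA. There were 15 libraries, 3 in each of 5 groups, and all groups had been transduced with a construct. The GFP control carried a vector that expresses GFP alone, and the NT shRNA group carried a non-targeting short hairpin RNA. The MLX-WT group received wild-type MLX, the MLX-DN group a dominant-negative form of MLX, and the MLX shRNA group a hairpin against Mlx. The promoter of each vector, the change that makes MLX dominant-negative, the time after transduction and the use of clones were not given in the labels. Separate cultures for the 3 libraries of each group are not stated, so the p-values measure the spread between libraries, which may be technical. In such bulk samples fewer cells of a type and less RNA per cell cannot be told apart.

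Mlx itself stood at 16.3 to 17.9 FPKM in the control libraries, 2.80 to 3.95 with MLX shRNA, 384 to 399.9 with MLX-DN and 632 to 655 with MLX-WT. Depth, estimated from the steps between low values, was 37.0 to 82.8 M reads, and libraries of 1 group correlated at 0.998 to 0.999 across genes. All 5 myoblast markers were at 1 FPKM or more and summed to 1527 to 1804 FPKM. Markers of other states and cell types moved with the groups. The 5 of differentiated muscle summed to 5866 to 5962 FPKM in the GFP control, 4694 to 4835 with NT shRNA, 5181 to 5350 in MLX-DN, 6441 to 6574 in MLX-WT and 6198 to 6667 in MLX shRNA libraries. The 5 fibroblast markers, 3 of them at a mean of 1 FPKM or more, summed to 61.6 to 64.2, 59.5 to 62.3, 46.5 to 48.1, 37.6 to 38.4 and 14.03 to 14.5 FPKM in the same order of groups. The 3 macrophage markers summed to 5.29 to 5.64 FPKM with MLX-DN, where Ptprc was at 4.39 to 4.74, and to 0.784 to 2.06 elsewhere, where Ptprc was at most 0.0099; Emr1 was listed at 0 throughout. The 4 adipocyte and 4 osteoblast markers summed to 1.61 to 3.60 and 5.57 to 10.3 FPKM, with Adipoq, Plin1 and Ibsp under 0.1 in every group mean. The part of these markers in the results was not tested. MLX-WT replicate 2 stood apart in Rn45s, the ribosomal RNA precursor, at 1263 FPKM against 107 to 363 in the other 14 libraries. Among the synthetases this library differed most in Lars2, and the values without it are given with those of Lars2.

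A separate gene usually encodes the synthetase of each compartment. Gars and Kars are exceptions, since each gives both the cytosolic and the mitochondrial enzyme. In the cytosol several synthetases, among them those encoded by Eprs, Iars, Lars, Mars, Qars, Rars, Kars and Dars, sit in a complex held together by the scaffold proteins Aimp1, Aimp2 and Eef1e1. When amino acids are short, uncharged tRNA activates the kinase GCN2 (Eif2ak4), translation of the factor ATF4 rises, and ATF4 raises the transcription of many cytosolic synthetases and of amino acid transporters and biosynthetic enzymes.

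Promoters are shown because 2 short sequences bear on these factors: TGATGNAA, which ATF4 with a C/EBP partner binds in the amino acid response element, and CACGTG, the E-box bound by MLX and other factors of its class. RefSeq windows from 250 bases before to 50 after the start site (build GRCm38.p6) were searched on both strands. TGATGNAA lay in the windows of 5 of the 12 cytosolic genes with a window (41.7%), in none of the 14 mitochondrial genes with one, and in 3.97% of the 32851 windows of all genes. CACGTG lay in 4 of the 12 (33.3%; Aars, Farsb, Iars and Tars), in 1 of the 14 (7.14%; Ears2) and in 7.15% of all windows. Of the other motifs searched, the longer response element ATTGCATCA, which contains a TGATGNAA match, lay in 2 of the 12 (Aars and Iars), none of the 14 and 0.192% of all windows. The CRE element TGACGTCA lay in none of either class and 1.79% of all windows, CCAAT in 7 of the 12, 6 of the 14 and 37.4%, and GATTGG, which overlaps the reverse of CCAAT, in 3, 4 and 16.1%. Paired E-boxes of the carbohydrate response element type, searched as exact repeats, were found in none of the 32851 windows. The 5 cytosolic genes with TGATGNAA are shown in part, with matches to both motifs in capitals (on either strand), positions counted from the start site, and the base before the start as -1. The last sequence is the promoter of Nars2, a mitochondrial gene shown because it ran against its class, which held neither motif in its window. A match is a description of letters and not of a bound site.
Aars, chr8:111033682-111033752, plus strand, -160 to -90: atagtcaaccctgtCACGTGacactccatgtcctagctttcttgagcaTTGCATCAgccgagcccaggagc
Iars, chr13:49682045-49682149, plus strand, -85 to 20: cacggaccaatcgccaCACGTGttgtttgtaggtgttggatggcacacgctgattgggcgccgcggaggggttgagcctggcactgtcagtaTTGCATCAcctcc
Tars, chr15:11399634-11399718, minus strand, -60 to 25: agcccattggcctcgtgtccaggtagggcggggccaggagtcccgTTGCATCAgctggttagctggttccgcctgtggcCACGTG
Gars, chr6:55037941-55038000, plus strand, -60 to -1: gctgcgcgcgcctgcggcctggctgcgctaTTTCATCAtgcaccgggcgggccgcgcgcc
Yars, chr4:129189843-129189922, plus strand, -60 to 20: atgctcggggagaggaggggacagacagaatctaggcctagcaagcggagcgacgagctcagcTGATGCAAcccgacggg
Nars2, chr7:96951427-96951526, plus strand, -100 to -1: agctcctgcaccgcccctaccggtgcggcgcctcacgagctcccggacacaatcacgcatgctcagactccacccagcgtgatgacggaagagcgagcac

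Cytosolic synthetases were far more abundant than mitochondrial ones. Their mean FPKM over the 15 libraries, a level per length of transcript, ran from 27.8 for Cars (cysteine) to 198 for Nars (asparagine), with a median of 64.1. The mitochondrial genes ran from 1.54 for Pars2 (proline) to 57.6 for Lars2 (leucine), with a median of 6.49. Pairs were matched by symbols that differ only in the final 2, which gave 13 pairs. This leaves out Eprs with Ears2 and Pars2, and Farsb with Fars2. In all 13 pairs the cytosolic gene had the higher mean FPKM, from 1.37 times for leucine to 29.8 times for asparagine. The precision therefore differed between the classes: an estimated 1526 to 43698 reads stood behind a cytosolic value and 121 to 79207 behind a mitochondrial one. The top of the mitochondrial range was Lars2 in MLX-WT replicate 2. Lars2 apart, the most was 13362, for Iars2.

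**Figure D1:**
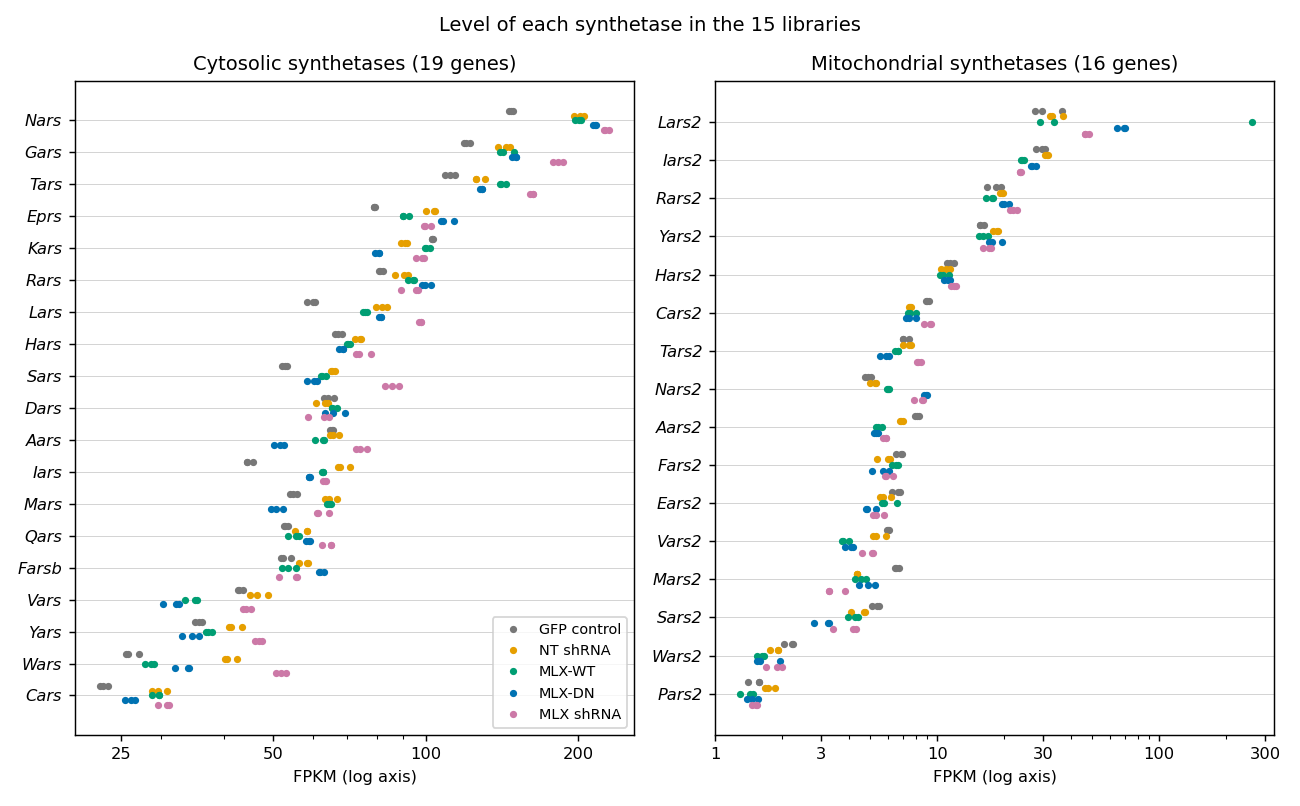
Level in FPKM (log axis, with a different range in each panel) of the 19 cytosolic and 16 mitochondrial synthetases, 1 point per library, coloured by group and ordered by mean level. The 3 libraries of a group lie close together except for Lars2 in the MLX-WT group, where 1 library reached 262 FPKM and the others 29.0 and 33.4.

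The order of the groups differed between the classes. The GFP control had the lowest mean level of the 5 groups for 13 of the 19 cytosolic genes and the MLX shRNA group the highest for 11. Among the 16 mitochondrial genes the GFP control was the highest group for 7, and the lowest group was MLX-WT for 5 and MLX-DN for 5. Wars (tryptophan) spanned the widest range of the cytosolic genes, with a highest group mean 1.98 times its lowest. Dars (aspartate) spanned the narrowest, at 1.06 times, and its 5 groups did not differ beyond their spread in any of the comparisons run. Lars2 apart, Mars2 (methionine) at 1.89 times and Nars2 (asparagine) at 1.82 times spanned the widest ranges of the mitochondrial genes.

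The controls were compared first, since neither carries an MLX construct and Mlx was at 17.1 FPKM in each. Of the 19 cytosolic synthetases, 16 were higher in the NT shRNA group than in the GFP control and 1, Kars, was lower, by limma at an adjusted p under 0.05. Among all 11945 genes tested 37% were higher and 37.1% lower. The median difference was 0.22 for the cytosolic class and 0.00 for all tested genes, on the log2(FPKM + 2) scale used for every difference here. Mitochondrial synthetases were higher for 3 of 16 and lower for 8, with a median of -0.08. In each of the 13 pairs matched by symbol, the cytosolic difference was the more positive. The sum of the differentiated muscle markers was also lower with NT shRNA, as given above. Of these markers Ckm, Myh3, Tnnt3 and Acta1 had lower means there. Myog went the other way, with a mean of 445 FPKM in the GFP control and 657 with NT shRNA.

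Iars, which charges tRNA with isoleucine, showed the control difference most clearly. It was at 45.7, 44.4 and 44.3 FPKM in the GFP control, 67.8, 70.8 and 67.1 with NT shRNA, 62.6, 62.2 and 62.6 with MLX-WT, 58.7, 58.8 and 59.2 in MLX-DN, and 62.6, 63.5 and 63.3 in MLX shRNA libraries. The GFP control libraries were the lowest 3 of the 15 and the NT shRNA libraries the highest 3, so every group with an MLX construct lay between the controls. The difference between the controls was 0.59 ± 0.0219 (SE; limma adjusted p = 1.41e-12).

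Wars was at 25.8, 25.6 and 27.1 FPKM in the GFP control and 40.5, 42.4 and 40.2 with NT shRNA (difference 0.61, adjusted p = 6.33e-11). Nars was at 146, 147 and 148 FPKM in the GFP control and 205, 201 and 196 with NT shRNA (0.44, adjusted p = 2.72e-11). Both pairs of groups were fully apart. Lars, Eprs (glutamate and proline) and Sars (serine), the other 3 genes of lowest p, were higher by 0.45, 0.37 and 0.31. Kars (lysine) went the other way, at 103 FPKM in each GFP control library and 91.9, 90.9 and 89.1 with NT shRNA (-0.18, adjusted p = 8.54e-07).

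Mitochondrial genes were led by Mars2, at 6.73, 6.51 and 6.43 FPKM in the GFP control and 4.36, 4.37 and 4.34 with NT shRNA (-0.43, adjusted p = 5.46e-07). Aars2 (alanine), Cars2 (cysteine), Fars2 (phenylalanine) and Sars2 (serine) were lower by -0.19, -0.21, -0.17 and -0.17. The exceptions that were higher were Yars2 (tyrosine) at 0.20, Pars2 at 0.09 and Iars2 (isoleucine) at 0.08. Pars2 missed the threshold once GFP control replicate 2 (adjusted p = 0.0868) or NT shRNA replicate 3 (0.0788) was left out, as did Sars2 without NT shRNA replicate 1 (0.0705). The Iars2 call was lost without any 1 of those libraries (up to 0.155), after quantile normalization (0.0629) and with only the 2 groups fitted (0.0540).

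**Figure D2:**
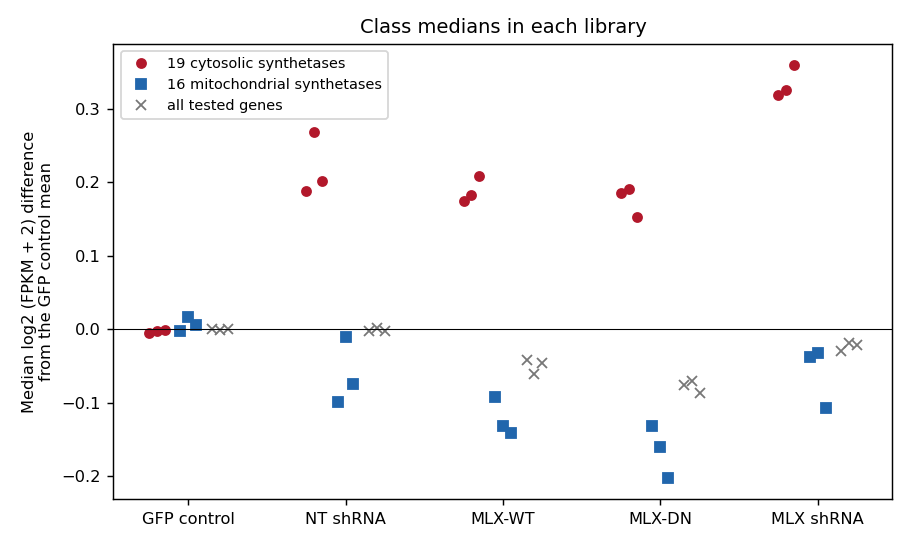
Median over the genes of each class of the difference from the GFP control mean, in log2(FPKM + 2), 1 point per library. The cytosolic median was 0.19 to 0.27 in the NT shRNA libraries, 0.17 to 0.21 with MLX-WT, 0.15 to 0.19 in MLX-DN and 0.32 to 0.36 in MLX shRNA libraries. The mitochondrial median lay below 0 in all 12 libraries outside the GFP control, at -0.10 to -0.01, -0.14 to -0.09, -0.20 to -0.13 and -0.11 to -0.03 in the same order. The median of all tested genes was -0.003 to 0.0009, -0.06 to -0.04, -0.09 to -0.07 and -0.03 to -0.02.

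With MLX-WT, 12 of the 19 cytosolic synthetases were higher than in the GFP control and 2 lower, where 27.6% of all tested genes were higher and 42.7% lower. The cytosolic median difference was 0.20 against -0.05 for all tested genes. Of the 16 mitochondrial genes 1 was higher and 8 were lower, with a median of -0.10. That median became -0.03 with library medians set equal and -0.02 after quantile normalization. Setting the library medians equal raised the share of higher genes among all calls from 39.3% to 54.4%; with that scaling 16 cytosolic genes were higher and 1 lower, and 1 mitochondrial gene higher and 7 lower. Against NT shRNA 2 of the 19 cytosolic genes were higher and 10 lower, with 25.7% and 44.3% of all tested genes. The lower count lies near its share, and the median was -0.06 both for the cytosolic class and for all tested genes. Mitochondrial genes were higher for 2 and lower for 8 there.

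Nars had the lowest p of the cytosolic genes against the GFP control, at 201, 197 and 203 FPKM with MLX-WT (difference 0.44 ± 0.0208, SE, adjusted p = 3.95e-11). Its MLX-WT libraries overlapped those of the NT shRNA group, and the difference from that control was -0.00 (adjusted p = 0.859). Iars, Lars, Cars and Sars were higher than the GFP control by 0.46, 0.34, 0.32 and 0.24, but stood at -0.13, -0.11, -0.01 and -0.06 against NT shRNA, the difference of Cars being within the spread (adjusted p = 0.706).

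The threonine enzyme gene Tars was higher with MLX-WT than in each control. It was at 114, 109 and 112 FPKM in the GFP control, 126, 131 and 126 with NT shRNA, and 144, 140.3 and 141 with MLX-WT. The 3 groups did not overlap, and MLX-WT was higher by 0.34 (adjusted p = 2.13e-09) and 0.15 (adjusted p = 1.87e-05). Tars and Nars2 were the only synthetases called higher against both controls, where 11.4% of all tested genes were. Both motifs lay in the Tars promoter printed above and neither in that of Nars2. The promoters of Aars and Iars also held both motifs, without a rise over each control. Aars was called lower with MLX-WT than in each control, with the limits given below. For Iars the MLX-WT level exceeded that of the GFP control (0.46) but was below that of NT shRNA (-0.13).

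Vars, for valine, was lower with MLX-WT than in each control. It was at 42.7, 42.5 and 43.5 FPKM in the GFP control, 44.9, 48.8 and 46.5 with NT shRNA, and 35.3, 33.5 and 35 with MLX-WT. No MLX-WT library reached a control library, and the differences were -0.30 (adjusted p = 7.88e-07) and -0.41 (adjusted p = 1.95e-08). Aars, for alanine, was lower by -0.07 and -0.09 (adjusted p = 0.0256 and 0.0088), and against the GFP control this was -0.00 (adjusted p = 0.946) with library medians set equal and was also lost without GFP control replicate 2 or 3 or MLX-WT replicate 2 (adjusted p = 0.0606, 0.0680 and 0.121).

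In the mitochondrial class Aars2 fell from 8.13, 8.30 and 7.93 FPKM in the GFP control to 5.67, 5.30 and 5.39 with MLX-WT, below the 6.78, 6.98 and 6.88 of NT shRNA. The differences were -0.44 (adjusted p = 1.13e-09) and -0.25 (adjusted p = 8.64e-07). Vars2 was at 5.94, 6.10 and 6.01 FPKM in the GFP control, 5.16, 5.87 and 5.30 with NT shRNA, and 4.01, 3.76 and 3.73 with MLX-WT (-0.46 and -0.35, adjusted p = 5.14e-08 and 1.23e-06). In both genes the MLX-WT libraries lay below every control library. Iars2 also fell against each control, as did Tars2 (threonine) and Wars2 (tryptophan), which are outside the naming rule here, so 5 of 16 mitochondrial and 2 of 19 cytosolic genes were lower than both, where 23.5% of all tested genes were. Mars2 and Cars2 differed from the GFP control, at -0.39 and -0.19, but not from NT shRNA, at 0.04 and 0.02 (adjusted p = 0.460 and 0.649).

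**Figure D3:**
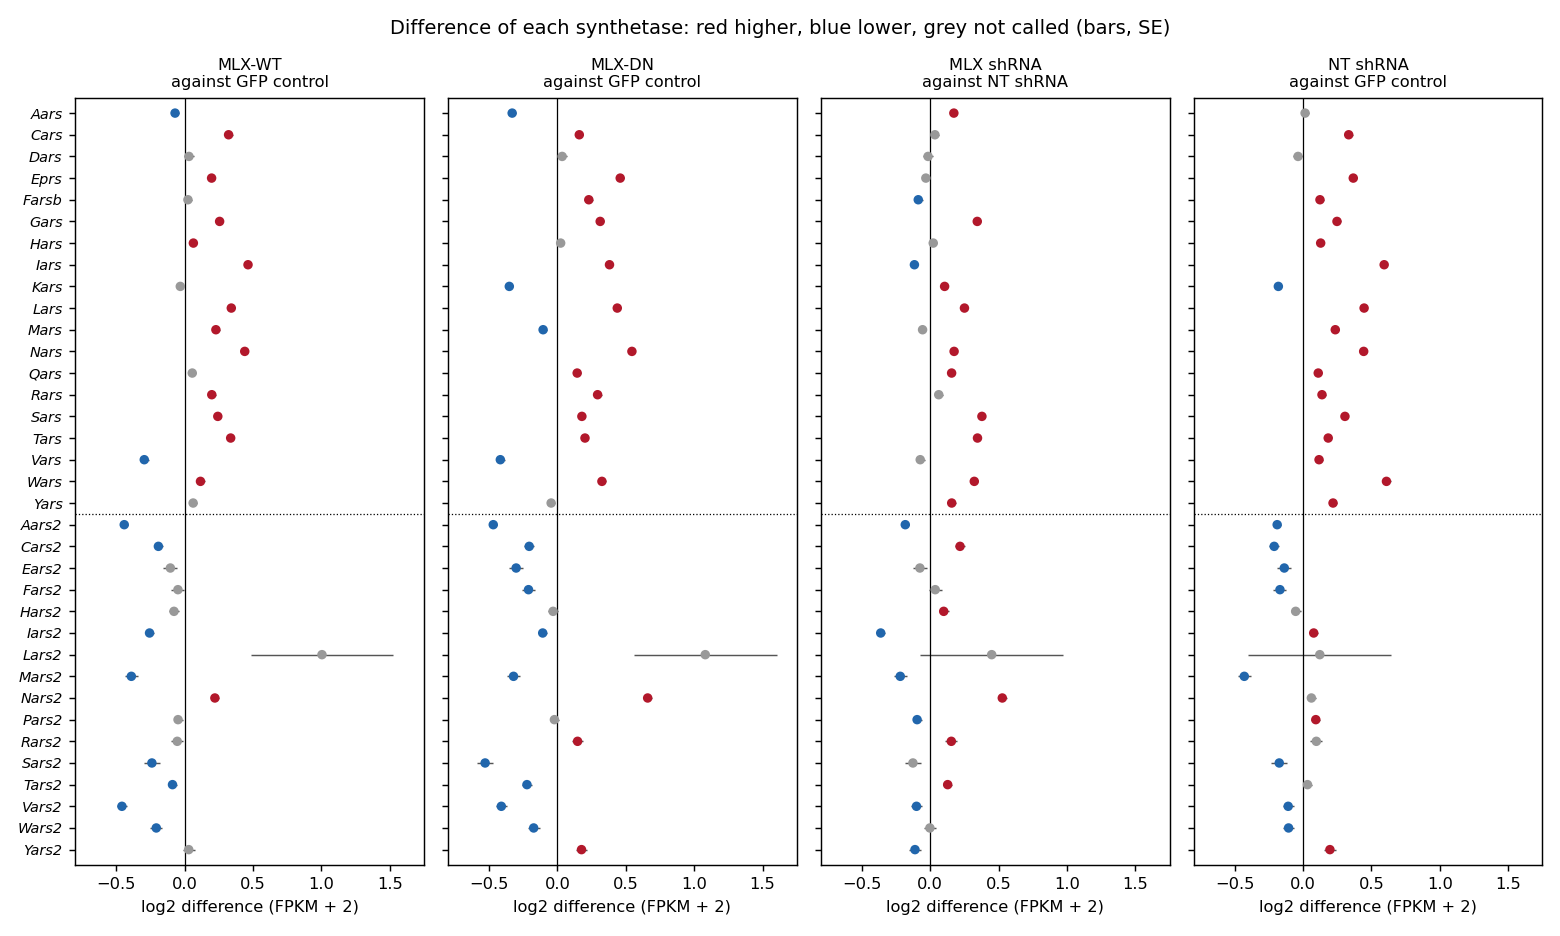
Difference of each synthetase in 4 comparisons, in log2(FPKM + 2), with the cytosolic genes above the dotted line and the mitochondrial genes below. Points are fitted differences, bars their SE, red marks genes higher and blue genes lower at an adjusted p under 0.05, and grey marks genes not called; cytosolic points lie mostly right of 0 and mitochondrial points mostly left of 0 in the comparisons against the GFP control.

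With MLX-DN, 12 of the 19 cytosolic genes were higher than in the GFP control and 4 lower, where 32.6% of all tested genes were higher and 48.8% lower. The cytosolic median was 0.18 and that of all tested genes -0.08. Mitochondrial genes were higher for 3 of 16 and lower for 10, with a median of -0.19. That median became -0.10 with library medians set equal and -0.08 after quantile normalization. With library medians set equal the share of higher genes among all calls went from 40% to 51.8%, and the counts became 14 and 3 cytosolic and 3 and 8 mitochondrial genes. Against NT shRNA, 5 cytosolic genes were higher and 10 lower, with 21% and 48.7% of all tested genes, and 2 mitochondrial genes were higher and 7 lower. The MLX-WT and MLX-DN comparisons share their control libraries.

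A group of 5 cytosolic genes, Eprs, Farsb (a phenylalanine enzyme subunit), Gars (glycine), Nars and Rars (arginine), was higher with MLX-DN than in both controls, where 15.1% of all tested genes were. Eprs was at 78.9, 79.0 and 79.5 FPKM in the GFP control, 104, 104 and 100.3 with NT shRNA, and 107, 108 and 114 with MLX-DN. The MLX-DN libraries were above those of both controls, by 0.46 (adjusted p = 8.74e-11) and 0.09 (adjusted p = 0.00385). Nars, at 214, 216 and 217 FPKM with MLX-DN, was also above every control library, by 0.54 (adjusted p = 1.47e-12) and 0.10 (adjusted p = 0.000488). Between the controls these genes had differed by 0.37 and 0.44.

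Aars, Kars, Mars (methionine) and Vars went the other way and fell against both controls, where 34.9% of all tested genes did. Aars was at 64.6, 65.3 and 65.5 FPKM in the GFP control, 64.5, 67.5 and 65.5 with NT shRNA, and 52.5, 51.6 and 50.1 with MLX-DN. The controls overlapped, MLX-DN lay well below them, and the differences were -0.33 ± 0.0261 (SE, adjusted p = 9.26e-09) and -0.35 ± 0.0261 (adjusted p = 1.95e-08). Aars shares 23.1% of its exon bases with Exosc6, a gene on the same strand outside the naming rule and chosen after its values were seen, which was at 9.72 FPKM in the GFP control, 6.13 with NT shRNA and 4.49 with MLX-DN. The part of that overlap in the difference was not tested.

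Vars with MLX-DN was at 32.5, 32.1 and 30.3 FPKM, below all control libraries (-0.42 and -0.53, adjusted p = 7.15e-09 and 1.79e-09). Kars was at 79.4, 80.6 and 80.7 FPKM (-0.35 and -0.17, adjusted p = 1.88e-10 and 2.16e-06), also fully apart from both controls. Mars was at 54.0, 54.6 and 55.6 FPKM in the GFP control, 63.2, 66.8 and 64.5 with NT shRNA, and 50.5, 52.2 and 49.5 with MLX-DN (-0.10 and -0.34, adjusted p = 0.00235 and 3.7e-08). With library medians set equal the first of these was -0.01 (adjusted p = 0.597). Iars and Lars differed by 0.38 and 0.44 from the GFP control and by -0.21 and -0.01 from NT shRNA, the last within the spread (adjusted p = 0.716).

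Nars2 ran against its class. It was at 4.86, 5.03 and 4.74 FPKM in the GFP control, 5.31, 5.24 and 4.97 with NT shRNA, 6.08, 5.94 and 6.01 with MLX-WT, 8.99, 8.91 and 8.68 in MLX-DN, and 8.59, 7.89 and 8.53 in MLX shRNA libraries. The controls overlapped (0.06, adjusted p = 0.0916), all 9 libraries with an MLX construct were above all 6 control libraries, and MLX-WT lay below the other two. MLX-DN was higher by 0.66 ± 0.0315 against the GFP control (SE, adjusted p = 2.2e-11) and by 0.60 against NT shRNA (adjusted p = 4.07e-10). MLX shRNA was higher by 0.53 against NT shRNA (adjusted p = 7.46e-10) and by 0.59 against the GFP control (adjusted p = 7.54e-11). MLX-WT was higher by 0.22 and 0.16 (adjusted p = 1.43e-05 and 0.000337).

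The other mitochondrial genes of lowest p fell with MLX-DN. Aars2 was at 5.42, 5.31 and 5.20 FPKM (-0.47 and -0.28 against the GFP control and NT shRNA) and Vars2 at 4.16, 4.08 and 3.86 (-0.41 and -0.30). Sars2 was at 5.09, 5.49 and 5.38 FPKM in the GFP control, 4.09, 4.74 and 4.67 with NT shRNA, and 3.21, 3.25 and 2.78 with MLX-DN. These MLX-DN values lay below every control library, with differences of -0.53 (adjusted p = 3.77e-07) and -0.35 (adjusted p = 5.15e-05). Tars2, Iars2 and Ears2 (glutamate) were lower against both controls as well, and Mars2 only against the GFP control (-0.32), since it was 0.11 higher than NT shRNA (adjusted p = 0.0474). Rars2 and Yars2 were higher than the GFP control by 0.15 and 0.18 and did not pass the test against NT shRNA (0.05 and -0.02, adjusted p = 0.316 and 0.686).

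**Figure D4:**
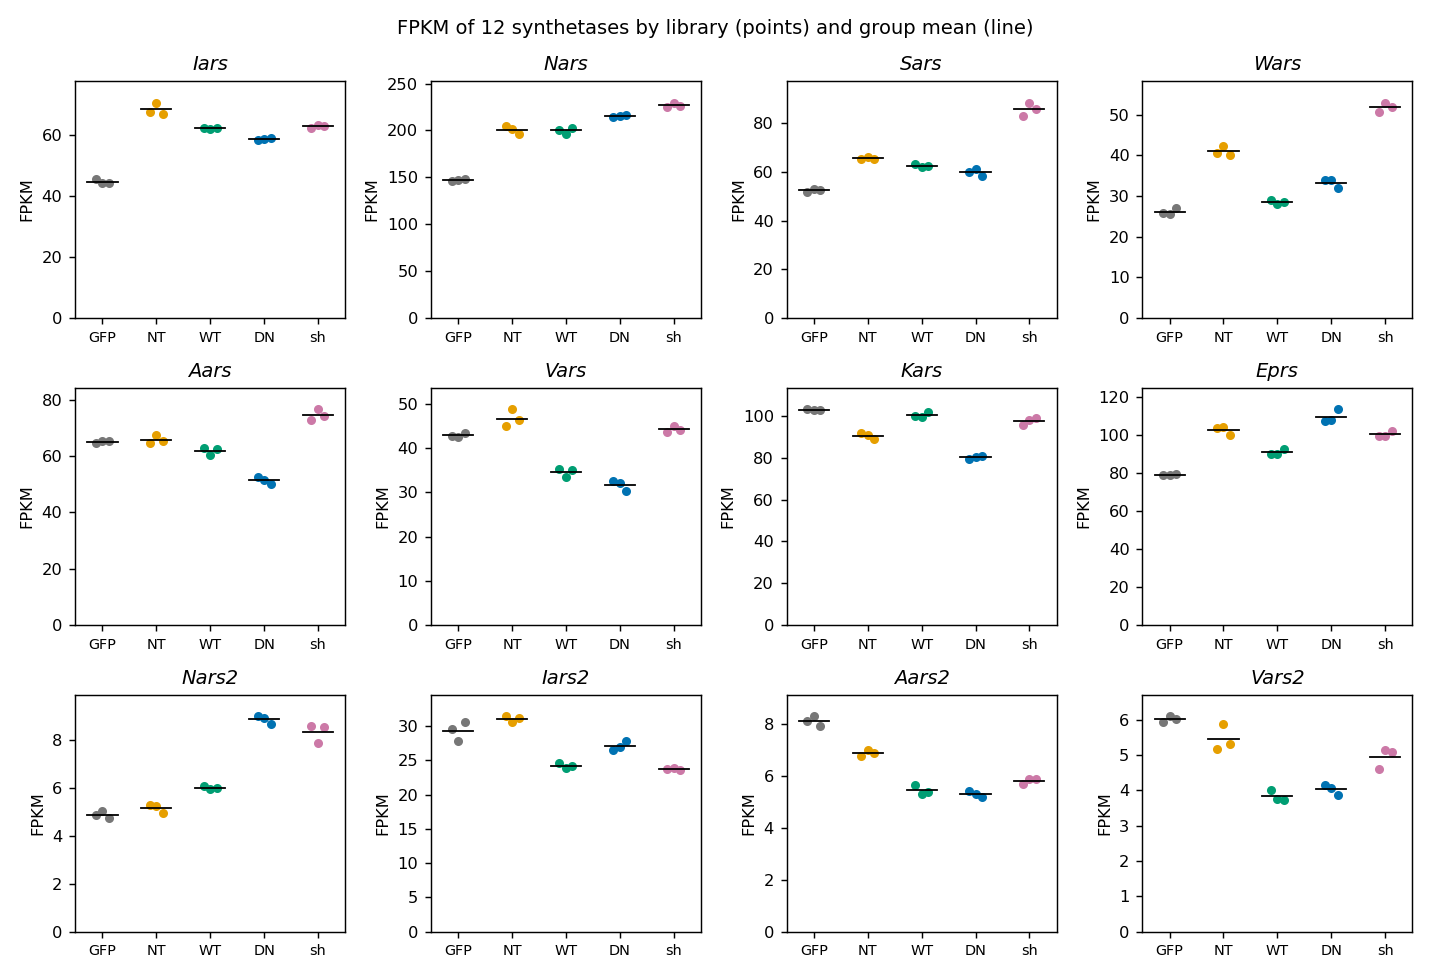
FPKM of 12 synthetases in each library (points) with group means (lines), each panel with its own axis from 0; GFP is the GFP control, NT the NT shRNA group, WT, DN and sh the MLX-WT, MLX-DN and MLX shRNA groups. Iars and Nars are lowest in the GFP control, Sars and Wars highest with MLX shRNA, Aars, Vars and Kars lowest with MLX-DN, and Nars2 highest with MLX-DN and MLX shRNA.

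With MLX shRNA, 10 of the 19 cytosolic genes were higher than with NT shRNA and 2 lower, where 30.8% of all tested genes were higher and 39.3% lower. The cytosolic median was 0.11 and that of all tested genes -0.02. Mitochondrial genes were split, with 5 of 16 higher and 6 lower; their median of -0.04 became 0.01 with library medians set equal and 0.03 after quantile normalization. With medians set equal the share of higher genes among all calls went from 43.9% to 55.7%, and the counts became 13 and 1 cytosolic and 5 and 3 mitochondrial genes. Against the GFP control 15 cytosolic genes were higher and 1 lower (37.3% and 42.8% of all tested genes), and 3 mitochondrial genes were higher and 8 lower.

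Higher calls against NT shRNA numbered 7 of the 11 cytosolic genes whose enzymes are not in the complex, with a median of 0.17. They numbered 3 of the 8 whose enzymes are, with a median of 0.02, where 30.8% of all tested genes were higher. Against the GFP control the medians outside and in the complex were 0.12 and 0.20 with MLX-WT and 0.18 and 0.22 with MLX-DN. With NT shRNA they were 0.22 and 0.19, and with MLX shRNA 0.38 and 0.23. This contrast between subsets was not tested. Sars had the largest difference. It was at 51.9, 53.2 and 52.7 FPKM in the GFP control, 65.2, 66.1 and 65.1 with NT shRNA, and 83.0, 88.4 and 85.8 with MLX shRNA. The MLX shRNA libraries were the highest of all 15, and the difference from NT shRNA was 0.38 ± 0.0248 (SE, adjusted p = 2.23e-09). Tars was at 161, 163 and 163 FPKM with MLX shRNA (0.35, adjusted p = 1.7e-09), above its level in every other library. Gars was at 144, 147 and 139 FPKM with NT shRNA and 182, 178 and 186 with MLX shRNA (0.34, adjusted p = 1.77e-08), likewise the highest group.

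Wars was at 50.6, 53.0 and 51.8 FPKM with MLX shRNA, 0.32 above NT shRNA (adjusted p = 1.6e-07) and 0.93 above the GFP control (adjusted p = 1.61e-13). It was the synthetase with the widest spread of group means after Lars2, and its 5 groups did not overlap: MLX-WT was at 29.0, 27.9 and 28.6 FPKM and MLX-DN at 34.0, 33.9 and 32.0. Against NT shRNA, MLX-WT and MLX-DN were lower by -0.49 and -0.28 (adjusted p = 1.2e-09 and 8.31e-07), although against the GFP control they were higher by 0.12 and 0.33. Lars, whose enzyme is in the complex, was at 98.0, 97.1 and 97.9 FPKM with MLX shRNA, 0.25 above NT shRNA (adjusted p = 5.26e-08) and the highest group. Aars was at 72.8, 76.6 and 74.1 FPKM, 0.17 above NT shRNA (adjusted p = 2.62e-05), whereas the MLX-DN difference from that control was -0.35.

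In all, 9 cytosolic genes (Aars, Gars, Lars, Nars, Qars for glutamine, Sars, Tars, Wars and Yars for tyrosine) and 3 mitochondrial genes (Nars2, Rars2 and Tars2) were higher with MLX shRNA than in both controls, with 21.4% of all tested genes. Of these cytosolic genes Aars, Gars, Tars and Yars carry TGATGNAA in the promoter window. The match lay in 5 of the 12 cytosolic genes with a window (41.7%), whatever their change, and in 3.97% of all windows. Qars had a window without it. Only 12 of the 19 cytosolic genes had a window, so other genes of this group may not have been searched. Iars also carries the motif and was lower than with NT shRNA (-0.12, adjusted p = 0.000231). Farsb was the other cytosolic gene that fell, by 0.09 (adjusted p = 0.0246), a call lost with medians set equal (-0.03, adjusted p = 0.355), with no filter (0.0561), with only the 2 groups fitted (0.0669), and without NT shRNA replicate 1 or 2 or MLX shRNA replicate 2 (0.0695, 0.0807 and 0.138). Lower than both controls were 4 mitochondrial genes, Aars2, Iars2, Mars2 and Vars2, with 28% of all tested genes.

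Iars2 was at 29.5, 27.9 and 30.5 FPKM in the GFP control, 31.4, 30.5 and 31.1 with NT shRNA, and 23.7, 23.8 and 23.6 with MLX shRNA. The MLX shRNA libraries lay below every control library (-0.36 against NT shRNA, adjusted p = 2.27e-08). Iars2 shares 30.5% of its exon bases with Rab3gap2 on the opposite strand, a gene outside the naming rule and chosen after its values were seen. Rab3gap2 was at 19.8, 22.2 and 16.2 FPKM in the same 3 groups. Whether the authors counted by strand is not stated, and the part of the overlap was not tested. Cars2 was at 7.56, 7.63 and 7.48 FPKM with NT shRNA and 9.29, 9.36 and 8.70 with MLX shRNA (0.22, adjusted p = 4.62e-05), and did not differ from the GFP control beyond the spread (0.01, adjusted p = 0.855). Mars2 was lowest with MLX shRNA, at 3.86, 3.27 and 3.27 FPKM (-0.22, adjusted p = 0.000564). Hars2, for histidine, was 0.10 higher (adjusted p = 0.0286), a call lost with no filter (0.0604), with only the 2 groups fitted (0.0505), against the GFP control instead (0.279) and without any 1 of 4 libraries (MLX shRNA replicate 1 or 2, 0.0861 and 0.0557, or NT shRNA replicate 1 or 3, 0.0606 and 0.134).

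Both MLX forms were compared directly, without a control. MLX-DN was higher than MLX-WT for 7 cytosolic genes and lower for 9, with 33.2% and 38.9% of all tested genes, and higher for 4 and lower for 4 of the mitochondrial genes. The median was -0.04 for cytosolic and 0.04 for mitochondrial genes, and the first became 0.00 after quantile normalization. Kars, Mars and Aars were lower with MLX-DN by -0.32, -0.33 and -0.26 (adjusted p = 1.43e-09, 3.08e-08 and 3.05e-07). Eprs, Wars and Farsb were higher by 0.26, 0.21 and 0.21 (adjusted p = 1.47e-07, 1.73e-05 and 3.6e-05). Nars2 was higher by 0.44 (adjusted p = 6.79e-09) and Iars2 by 0.15 (adjusted p = 0.000273), while Sars2 was lower by -0.29 (adjusted p = 0.000306). In this comparison the cytosolic gene had the more positive difference in 3 of the 13 pairs matched by symbol. The count was 12 for MLX-WT and 9 for MLX-DN relative to the GFP control and 8 for MLX shRNA relative to NT shRNA. Without MLX-WT replicate 2 the first of these counts was 2 and that of MLX-WT 13, since the leucine pair changed sides in each.

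The effect of MLX-DN relative to the GFP control and that of MLX shRNA relative to NT shRNA were compared gene by gene as a difference of effects, which contains the difference between the controls. It was positive (MLX-DN more positive) for 7 and negative for 6 of the 19 cytosolic genes, with 32% and 42.8% of all tested genes, and positive for 3 and negative for 9 mitochondrial genes. For MLX-WT and MLX shRNA it was positive for 8 and negative for 6 cytosolic genes, with 29.5% and 35.9%, and positive for 1 and negative for 9 mitochondrial genes. Iars had the largest positive value among cytosolic genes in the MLX-WT case (0.58), and Aars and Kars the most negative in the MLX-DN case (-0.50 and -0.46).

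Lars2, the mitochondrial leucine enzyme gene, varied more than any other member. It was at 27.5, 36.4 and 29.7 FPKM in the GFP control, 36.9, 32.3 and 32.8 with NT shRNA, 29.0, 262 and 33.4 with MLX-WT, 64.4, 69.2 and 70.0 in MLX-DN, and 46.4, 46.5 and 48.3 in MLX shRNA libraries. The coefficient of variation within the MLX-WT group was 123%, against 13.6% for the next most variable member, Wars2, and a median of 4.17%. With all 15 libraries Lars2 passed no test (MLX-DN against GFP control 1.08 ± 0.522, SE, adjusted p = 0.0679). Without MLX-WT replicate 2 the same difference of 1.08 had an SE of 0.0800 (adjusted p = 1.14e-08), MLX shRNA was 0.45 above NT shRNA (adjusted p = 0.000173), and MLX-WT did not differ from the GFP control beyond the spread (0.01, adjusted p = 0.953). The counts without this library were 4 higher and 10 lower mitochondrial genes with MLX-DN, 6 and 6 with MLX shRNA, and 1 and 7 with MLX-WT, where 12 cytosolic genes were higher and 1 lower. For MLX-DN against MLX-WT, Lars2 was 0.08 (adjusted p = 0.903) with all libraries and 1.07 (adjusted p = 1.14e-07) without this one, and 5 mitochondrial genes were higher instead of 4. In the differences of effects Lars2 became 0.63 for MLX-DN (adjusted p = 0.00016) and -0.44 for MLX-WT (adjusted p = 0.00528), the latter from 0.55 with all libraries (adjusted p = 0.523). The mitochondrial genes with a positive difference of effects then numbered 4 instead of 3 for MLX-DN and 2 instead of 1 for MLX-WT, and the cytosolic genes with a negative one 5 instead of 6 for MLX-WT.

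Lars2 moved with Rn45s, a gene chosen after its values were seen, across the groups with an MLX construct but not between the controls. Rn45s was at 153, 190.1 and 134 FPKM in the GFP control, 147, 107 and 111 with NT shRNA, 125, 1263 and 158 with MLX-WT, 279, 363 and 319 in MLX-DN, and 226, 209 and 225 in MLX shRNA libraries. The ratio of Lars2 to Rn45s stayed between 0.18 and 0.30 in all 15 libraries. It was 0.18 to 0.22 in the GFP control and 0.25 to 0.30 with NT shRNA. In these groups the mean of Rn45s was 159 and 122 FPKM, and that of Lars2 31.2 and 34.0. Rpph1, the RNA of ribonuclease P, also chosen after its values were seen, was at 12.4 FPKM in MLX-WT replicate 2 and 0.0797 to 1.16 elsewhere. The part of ribosomal RNA in the Lars2 values was not tested.

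**Figure D5:**
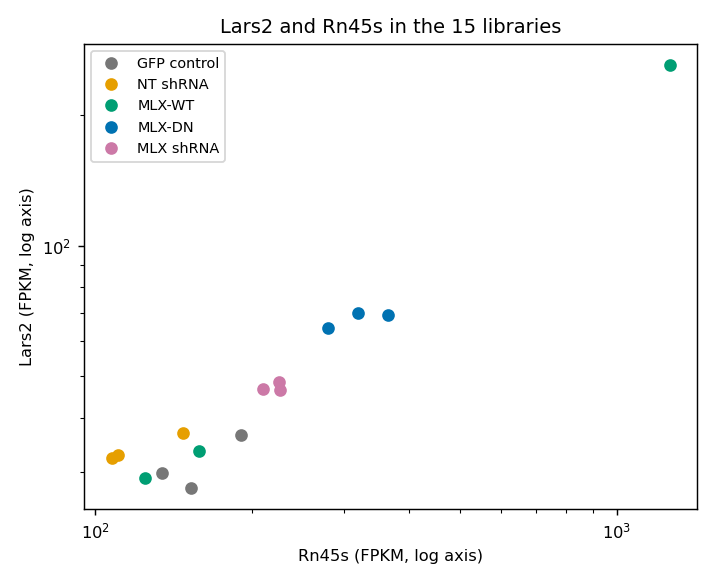
Lars2 against Rn45s in FPKM, both on log axes, 1 point per library, coloured by group. The points rise together across groups, with MLX-WT replicate 2 at the top right (1263 and 262 FPKM), the MLX-DN libraries next, then MLX shRNA. The other libraries lie at the lower left, where the NT shRNA libraries had less Rn45s for their Lars2 than the GFP control libraries.

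Other genes of tRNA charging and amino acid supply were read from lists of known function. The scaffold genes of the complex were higher for 3 of 3 in the MLX-WT and MLX-DN groups relative to the GFP control and in MLX shRNA relative to NT shRNA, with medians of 0.37, 0.51 and 0.20, where 27.6%, 32.6% and 30.8% of all tested genes were higher. Aimp2 was at 37.7 FPKM in the GFP control, 47.0 with NT shRNA, 49.3 in MLX-WT, 56.2 in MLX-DN and 54.9 in MLX shRNA libraries. Between the controls Aimp2 and Eef1e1 were higher with NT shRNA (0.31 and 0.38) and Aimp1 lower (-0.07, adjusted p = 0.0242).

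Genes of amino acid synthesis and uptake, 17 of them tested, were higher for 14 in MLX-WT, 13 in MLX-DN and 15 in NT shRNA relative to the GFP control and for 14 in MLX shRNA relative to NT shRNA, and lower for 1, 2, 1 and 2. Among all tested genes 27.6%, 32.6%, 37% and 30.8% were higher in these comparisons, and 42.7%, 48.8%, 37.1% and 39.3% lower. The list's medians of 0.41, 0.30, 0.54 and 0.28 were above those of the cytosolic synthetases. Asns, asparagine synthetase, was at 37.7 FPKM in the GFP control, 67.7 with NT shRNA, 71.9 in MLX-WT, 71.5 in MLX-DN and 103 in MLX shRNA libraries. Its differences from the GFP control were 0.81 for NT shRNA, 0.90 for MLX-WT and 0.89 for MLX-DN, and MLX shRNA was 0.59 above NT shRNA (adjusted p = 5.18e-12). Psat1, of serine synthesis, was higher by 0.85, 1.02, 0.72 and 0.50 in these 4 comparisons. The 3 comparisons with the GFP control share its libraries. Against NT shRNA the list was higher for 7 and lower for 7 with MLX-WT, where 25.7% and 44.3% of all tested genes were. With MLX-DN the list was higher for 2 and lower for 8, where 21% and 48.7% of all tested genes were. Both lower counts, of 17, lie near those shares.

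A list of 12 stress-response genes was split. It holds GCN2 (Eif2ak4), factors such as Atf4, and Eif2ak1, Eif2ak2 and Eif2ak3, which are not specific to amino acid shortage. Relative to the GFP control 6 were higher and 6 lower in MLX-WT (27.6% and 42.7% of all tested genes) and 4 and 4 in MLX-DN (32.6% and 48.8%). In MLX shRNA relative to NT shRNA 3 were higher and 7 lower (30.8% and 39.3%), and between the controls 8 and 2 (37% and 37.1%). Against NT shRNA 1 was higher and 8 lower in MLX-WT (median -0.20) and 2 were higher and 9 lower in MLX-DN (median -0.18), where 25.7% and 44.3%, and 21% and 48.7%, of all tested genes were higher and lower. Atf5 was at 24.9 FPKM in the GFP control, 46.6 with NT shRNA, 38.9 in MLX-WT, 39.2 in MLX-DN and 41.8 in MLX shRNA libraries. Cebpb, a C/EBP factor, was at 22.5 FPKM with NT shRNA and 6.36 with MLX shRNA (-1.55, adjusted p = 3.27e-11). Of the cytosolic elongation factors 5 were tested: Eef1a1, Eef1b2, Eef1d, Eef1g and Eef2. Relative to the GFP control 3 were lower in MLX-WT, 4 in MLX-DN and 4 in NT shRNA libraries. Among all tested genes 42.7%, 48.8% and 37.1% were lower there. Against NT shRNA the direction turned for MLX-WT, with 4 of the 5 higher (median 0.15), and 1 was higher and 2 lower for MLX-DN (median -0.02). Of all tested genes 25.7% were higher with MLX-WT, and 21% higher and 48.7% lower with MLX-DN. In MLX-WT, MLX-DN and NT shRNA relative to the GFP control Eef1d was lower by -0.16, -0.56 and -0.39. Eef1g was lower by -0.22, -0.38 and -0.37. Eef1a1 was at 4209 FPKM in the GFP control, 4365 in MLX-WT, 4456 in MLX-DN and 4186 in NT shRNA libraries. With MLX shRNA, 1 of the 5 was higher (Eef1a1, 0.28, adjusted p = 6.55e-09) and 1 lower (Eef1b2, -0.17, adjusted p = 6.12e-06), where 30.8% and 39.3% of all tested genes were. Of the 4 mitochondrial elongation factors 3 were higher with MLX shRNA (30.8% of all tested genes), led by Gfm1 (0.29, adjusted p = 6.57e-08). With MLX-DN 2 were higher and 2 lower (32.6% and 48.8% of all tested genes), the latter Tsfm (-0.44) and Tufm (-0.36). Of 6 genes of tRNA editing and amidation, 2 were higher and 4 lower with MLX-DN than in the GFP control, and 1 and 4 with MLX-WT. With MLX shRNA 2 were higher and 1 lower than with NT shRNA. The shares of all tested genes were 32.6% and 48.8%, 27.6% and 42.7%, and 30.8% and 39.3%. With MLX-DN, Aarsd1, which edits mischarged alanine tRNA, differed by -0.71 (adjusted p = 4.08e-10), Dtd1 by 0.38 (adjusted p = 1.6e-05) and Prorsd1 by 0.31 (adjusted p = 7.85e-07).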

How the data were processed

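RNA of 15 libraries was measured by poly(A)-selected, stranded sequencing, per the labels' protocols. Groups and replicate numbers come from the sample labels. Per the submitters' processing notes, TopHat2, STAR and CASAVA were used with build mm9 of the mouse genome; roles and versions are not given. The authors deposited 1 table of log2 values of FPKM for 23352 genes. Its lowest value was 1 in every library, so the scale was taken to be log2(FPKM + 2), and FPKM was recovered by undoing the logarithm and subtracting 2; with this offset FPKM multiplied by RefSeq transcript length gave sums of 0.96 to 0.991 M over the 21400 genes with a length, which held 94.8% to 95.2% of FPKM. The log2 scale understates differences of genes with low values.

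Genes with at least 1 FPKM in at least 3 libraries, 11945, were tested with limma 3.58.1 (R 4.3.3) on the log2 values as deposited, fitting a mean for each group to all 15 libraries, with a trend over expression. Tests were two-sided, with Benjamini-Hochberg adjustment over all tested genes of a comparison at a threshold of 0.05. SD and SE are over the 3 libraries of a group and from the fit. The fit was also tested on simulated data. The members, lists, motifs and comparisons were chosen with earlier results of these data known. The genes named are the 6 of lowest p per class and comparison, those called against the majority of their class, and 3 per other list. Other genes named fill out a count or were chosen after their values were seen. Alternatives were other offsets, filters, scalings and sets of libraries, no trend, the other control, a block for the replicate number, and omission of single libraries.

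Depth was estimated from steps between low FPKM over 15965 genes with 1 RefSeq length; of their low values, 66% to 70% were whole reads within 0.05. In M reads, depth was 37.0 to 52.1 for MLX shRNA, 39.6 to 56.1 for NT shRNA, 38.5 to 82.8 for the GFP control, 47.2 to 65.8 for MLX-DN and 53.0 to 77.8 for MLX-WT, and read numbers per gene follow from it with the shortest transcript; these cover counting error only. Since too few values came out whole, no count model was used. Exon overlaps come from an annotation of GRCm38, which held 35 of 35 genes. Of the promoter windows, 12 of 19 cytosolic and 14 of 16 mitochondrial genes had one. Protein sequences were not used here.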

Additional observations from a re-analysis of the deposited data

Results flagged for a closer look

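The effects of MLX-DN (relative to the GFP control) and of MLX shRNA (relative to NT shRNA) differed in the limma test of the difference itself for 7 cytosolic genes upward and 6 downward, and for 3 mitochondrial genes upward and 9 downward, where 32% of all tested genes went upward and 42.8% downward. Both cytosolic counts, of 19, lie near those shares. Upward means that the effect of MLX-DN was the more positive. Kars differed by -0.46, Aars by -0.50 and Vars by -0.34, Iars by 0.50, Eprs by 0.49 and Nars by 0.37. In the mitochondrial class Cars2 differed by -0.42, Sars2 by -0.40, Tars2 by -0.35, Vars2 by -0.31, Aars2 by -0.29 and Iars2 by 0.25. Adjusted p-values of these 12 genes ran from 1.03e-09 to 0.000331.

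The effects of MLX-WT and of MLX shRNA differed for 8 cytosolic genes upward and 6 downward, and for 1 mitochondrial gene upward and 9 downward, where 29.5% of all tested genes went upward and 35.9% downward. Iars differed by 0.58, Cars by 0.29, Mars by 0.28, Nars by 0.26, Eprs by 0.23 and Aars by -0.24. Cars2 differed by -0.41, Vars2 by -0.36, Nars2 by -0.31, Aars2 by -0.26, Tars2 by -0.22 and Rars2 by -0.21, with adjusted p-values of the 12 genes from 2.46e-10 to 0.00716. Each difference of effects contains the difference between the controls, which was 0.59 for Iars, 0.44 for Nars and -0.18 for Kars.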

How the results depend on the processing

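Using the other control changed most. Cytosolic genes higher went from 12 to 2 with MLX-WT and from 12 to 5 with MLX-DN, and lower from 2 to 10 and from 4 to 10. Among all tested genes the higher share went from 27.6% to 25.7% and from 32.6% to 21%. The lower share went from 42.7% to 44.3% and from 48.8% to 48.7%. Both lower counts against NT shRNA, of 19, lie near those shares. With MLX shRNA mitochondrial genes higher went from 5 to 3 and cytosolic genes lower from 2 to 1, and mitochondrial genes higher with MLX-WT from 1 to 2. Called in the opposite direction were, with MLX-WT, Iars (0.46 to -0.13), Lars (0.34 to -0.11) and Sars (0.24 to -0.064). The same held for Iars (0.38 to -0.21) and Mars2 (-0.32 to 0.11) with MLX-DN, and for Iars (-0.12 to 0.48) with MLX shRNA. Other named genes changed sign but were not called against the other control, with limma adjusted p from 0.305 to 0.859. With MLX-WT these were Nars (0.44 to -0.0044), Cars (0.32 to -0.013), Cars2 (-0.19 to 0.019) and Mars2 (-0.39 to 0.039). With MLX-DN they were Lars (0.44 to -0.0093) and Yars2 (0.18 to -0.021), and with MLX shRNA Farsb (-0.09 to 0.037). The cause was not tested.

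Median centring moved cytosolic lower calls from 2 to 1 with MLX-WT and with MLX shRNA, and mitochondrial lower calls with MLX shRNA from 6 to 3. Quantile normalization moved the last from 6 to 3 as well, cytosolic lower calls with MLX shRNA from 2 to 4, and mitochondrial higher calls of MLX-DN against MLX-WT from 4 to 8. No filter, and a fit on only the 2 groups compared, each moved cytosolic lower calls with MLX shRNA from 2 to 1. Leaving out 1 library gave these ranges of counts: cytosolic lower 1 to 2 with MLX-WT (1 without GFP control replicate 2 or 3 or MLX-WT replicate 2) and 1 to 3 with MLX shRNA (1 without NT shRNA replicate 2), mitochondrial higher 1 to 2 with MLX-WT (2 without MLX-WT replicate 1 or 3) and 1 to 4 between the controls (1 without GFP control replicate 2), and mitochondrial lower 3 to 7 with MLX shRNA (3 without MLX shRNA replicate 1) and 4 to 8 between the controls (4 without NT shRNA replicate 1).

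Replicate numbers are shared between groups but did not pair the libraries: deviations of the 30 same-numbered pairs correlated at -0.0933 to 0.182 and those of the 60 other pairs at -0.276 to 0.243. With a replicate block all 77 named differences kept their direction and side of the threshold. Depth limits the mitochondrial genes most, down to 121 estimated reads.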

Other observations

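Farsa, the partner subunit of Farsb in the cytosolic phenylalanine enzyme and not one of the 35 genes, was chosen after its values were seen. It was at 56.6 FPKM in the GFP control, 162 with NT shRNA, 108 in MLX-WT, 136 in MLX-DN and 177 in MLX shRNA libraries, while Farsb stood at 52.7, 57.6, 53.6, 62.1 and 54.1 FPKM. Farsa was thus higher by 0.91 in MLX-WT, 1.24 in MLX-DN and 1.48 in NT shRNA libraries relative to the GFP control, and by 0.12 with MLX shRNA relative to NT shRNA. Its 10 nearest tested neighbours on chromosome 8, 5 on each side, had medians of 0.74, 1.03, 1.24 and 0.15 in the same comparisons, and were positive for 10, 10, 10 and 7 of 10.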
